A study of Drosophila melanogaster with 10 samples.

Results

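The genes described here encode calcium sensors and core proteins of neurotransmitter release, and they were followed through embryos carrying a transgene for the cell cycle inhibitor dacapo. They were chosen by name, with earlier results of these data known. The list holds 5 synaptotagmin genes (Syt1, Syt4, Syt7, Sytalpha and Sytbeta) and the release genes brp, cpx, Syx1A and Rop. These are 9 of the 15422 genes in the table. All 9 had a value above the floor in every library and passed the filter on low values, which asked for at least 1 RPKM in at least 2 libraries.

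As background, synaptic vesicles fuse with the presynaptic membrane when SNARE proteins on vesicle and membrane zip together. Syntaxin 1A (Syx1A) is the membrane SNARE, and the Sec1/Munc18 protein Rop binds it. Complexin (cpx) holds assembled SNAREs back until calcium enters, synaptotagmins sense the calcium, and Bruchpilot (brp) builds the dense body of the active zone where channels and vesicles meet. In the fly embryo these genes are switched on as neurons differentiate, while Rop and Syx1A also serve secretion in other cells.

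PolyA RNA of whole embryos at stages 15 to 16, grown at 25 °C, was sequenced in 5 genotypes with 2 libraries each, called independent samples in the labels. The tested embryos carried pros-Gal4 together with UAS-dap (here dap, wild-type dacapo), UAS-dap[CRL4] (dapCRL4), UAS-dap[PCNA] (dapPCNA) or UAS-dap[CDI] (dapCDI), and the labels describe the last 3 forms as stabilized Dacapo protein. Control embryos were pros-Gal4/+, so that the driver, named for the neural progenitor gene prospero, was present in every group. The labels do not give the number of embryos in a library, the insertion sites of the transgenes or the background of the lines. P-values therefore measure the spread between these samples only. In whole embryos, fewer neurons and less RNA per neuron cannot be told apart.

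Counted reads, estimated from genes with few reads, ranged from 17.0 to 25.7 megareads per library. The gene dap stood at 170.2 and 156 RPKM (reads per kilobase of transcript, scaled to sequencing depth) in dapCDI, between 70.7 and 85.8 RPKM in the other 3 forms, and at 70.5 and 70.7 RPKM in the control. Whether transgene reads count towards dap is not given in the sources used here.

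Syt7 was the 1 gene of the 9 whose change against the control passed the test. It rose 1.58-fold in dapCRL4, to 43.8 ± 0.244 RPKM against 27.8 ± 1.15 RPKM in the control (SD, n = 2 each). None of the other 8 genes passed the test in any of the 4 forms, which does not show that they were unchanged. Larger log2 changes than that of Syt7 (0.66) were −0.81 for brp in dap, −0.77 for brp in dapCDI and −0.75 for Syt1 in dapCDI. Syt1, Syt4, brp, cpx and Syx1A had their lowest values in the same pair of libraries, dap 2 and dapCDI 1, and Rop stayed within 94.3 to 101 RPKM in all 10 libraries. Calls rest on an adjusted p under 0.05 in limma, fitted to the log2 RPKM of all 10396 genes that passed the filter.

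**Figure D1:**
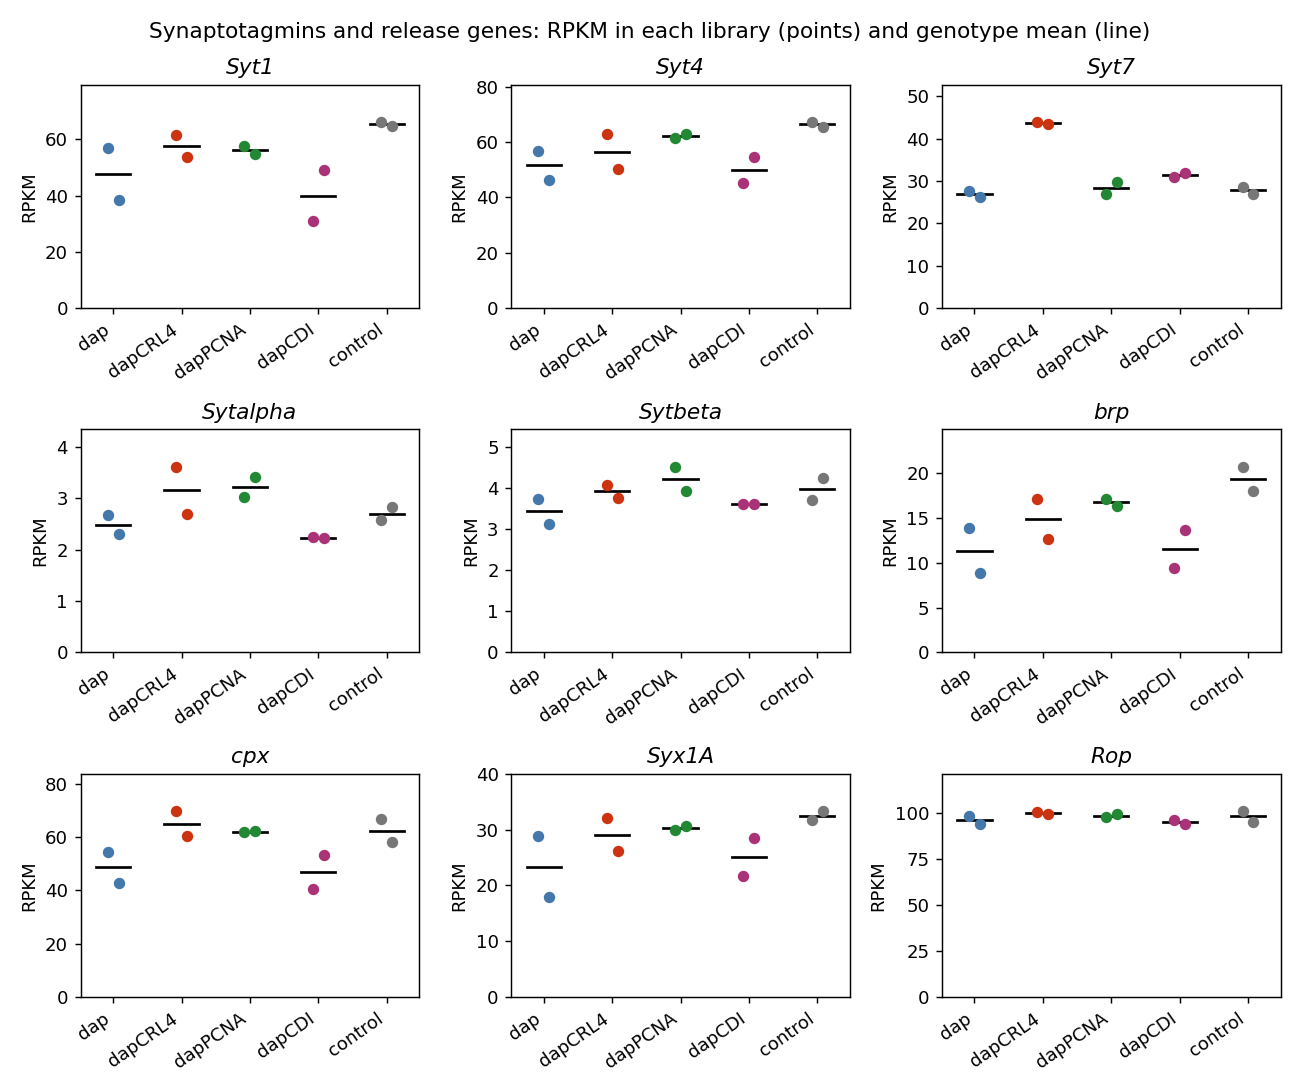
RPKM (y axis, starting at 0) of the 9 genes in each genotype (x axis), with 1 point per library and a line at the mean of 2 libraries. Syt7 stands apart in dapCRL4 at 43.9 and 43.6 RPKM, while Syt1, brp and Syx1A spread widely between the 2 libraries of dap and of dapCDI.

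In the control, the levels per unit of transcript length were ordered Rop, Syt4, Syt1, cpx, Syx1A, Syt7, brp, Sytbeta and Sytalpha. Rop led at 98.3 ± 4.13 RPKM, and Sytbeta and Sytalpha closed the order at 3.98 ± 0.379 and 2.70 ± 0.178 RPKM (SD, n = 2). The libraries of Syt4 (66.5 ± 1.18 RPKM), Syt1 (65.4 ± 1.07 RPKM) and cpx (62.4 ± 6.26 RPKM) overlapped, so that these 3 neighbours did not differ beyond their spread. The other neighbours in the order did not overlap. With estimated depths and annotated exon lengths, the lowest library held about 122 reads for Sytalpha and 280 for Sytbeta, and at least 1528 reads for each of the other 7 genes. Counting error is then at most 9.07% for Sytalpha, 5.98% for Sytbeta and 2.56% for the rest, and covers counting only.

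Syt7 encodes a calcium sensor with slow kinetics that in mammals serves asynchronous release and facilitation. The gene lies on chromosome 4 at 278685 to 306481 on the minus strand (FBgn0039900, BDGP6), with 3309 exonic bases, and the annotation places no other gene across its exons. It had 27.7 and 26.2 RPKM in dap, 43.9 and 43.6 RPKM in dapCRL4, 26.9 and 29.7 RPKM in dapPCNA, and 31.0 and 32.0 RPKM in dapCDI, against 28.6 and 27.0 RPKM in the control. Both dapCRL4 libraries thus lay above all 8 others, with no overlap. Over all genes tested, 33.5% had both dapCRL4 libraries above both controls, and the share above all 8 others was not computed.

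The rise in dapCRL4 was 0.66 on the log2 scale (SE 0.08, 95% interval 0.48 to 0.83, limma adjusted p = 0.00244), in a comparison in which 1.45% of all genes tested were called in either direction and 1.03% were called higher. The call was kept under all 21 alternatives, including every library left out in turn, with adjusted p between 0.00111 and 0.0417. After correction for exon length the change was 0.65. The other 3 forms gave Syt7 changes of −0.04 in dap (interval −0.22 to 0.13), 0.03 in dapPCNA (−0.15 to 0.20) and 0.18 in dapCDI (0.01 to 0.36), with limma adjusted p of 0.734, 0.940 and 0.143. These 4 comparisons share the control libraries.

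Direct comparisons between forms placed dapCRL4 above dap and dapPCNA. Syt7 was 0.70 log2 higher in dapCRL4 than in dap (interval 0.53 to 0.87, limma adjusted p = 0.0227, where 0.164% of genes were called). Leaving out dap 2, dapCRL4 1 or dapCRL4 2 ended that call, with adjusted p of 0.101, 0.173 and 0.0754, and fitting only those 4 libraries gave 0.101. Against dapPCNA the difference was 0.63 (interval 0.46 to 0.80, limma adjusted p = 0.0302, with 0.0577% of genes called). That call was lost in 7 of 10 leave-one-out fits, namely without either library of dap, dapCRL4 or control and without dapPCNA 1, at up to 0.234. Against dapCDI the difference was 0.47 (interval 0.30 to 0.65) and did not pass (limma adjusted p = 0.128, with 0.0673% of genes called), and 9 of 10 leave-one-out fits did not call it, the exception being without dapCDI 2 (0.0497). The comparisons with dapPCNA and dapCDI were added after the values had been seen.

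The dapCRL4 transgene and any other difference of that line cannot be told apart, so the genes around Syt7 were read as well. Of 86 tested genes on chromosome 4, 2 were called higher and none lower in dapCRL4 against the control. They were Syt7 and Sox102F (log2 0.48, limma adjusted p = 0.0348), a transcription factor gene. Over all genes tested, 1.03% were called higher in that comparison. The median of the chromosome was 0.06 in dapCRL4, against 0.04 for all genes tested. The 3 tested genes on either side of Syt7 had changes between −0.22 (NfI) and 0.34 (RhoGAP102A) in dapCRL4, and none was called there. These neighbours were chosen by position after the values of Syt7 had been seen. Relative to dap, 2 of the 86 genes were called higher in dapCRL4 and none lower. They were Syt7 and bt (log2 0.64, limma adjusted p = 0.0278), where 0.164% of all genes were called in either direction.

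**Figure D2:**
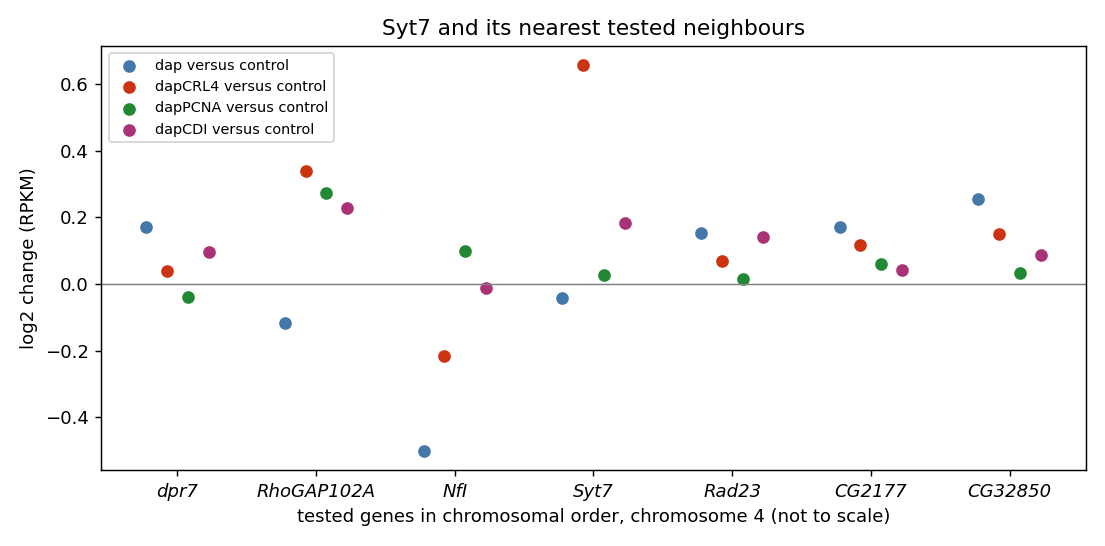
Log2 change of RPKM against the control (y axis) for Syt7 and the 3 nearest tested genes on either side, in chromosomal order (x axis), with 1 point per dacapo form. In dapCRL4 Syt7 lies at 0.66, and the 6 neighbours lie between −0.22 and 0.34.

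Syt1 encodes the fast calcium sensor of synaptic vesicles (2L, 2772327 to 2799979). It had 57.1 and 38.4 RPKM in dap, 61.7 and 53.9 RPKM in dapCRL4, 57.6 and 54.7 RPKM in dapPCNA, and 30.9 and 49.0 RPKM in dapCDI, against 66.2 and 64.7 RPKM in the control. All 8 dacapo libraries lay below both control libraries, which every form shares. In a single form, 20.2% to 26.6% of all genes had both libraries below both controls. The share with all 8 below, here and for the genes that follow, was not computed. The log2 change was −0.48 in dap (interval −0.96 to −0.01, limma adjusted p = 0.147) and −0.75 in dapCDI (−1.23 to −0.27, 0.0576). It was −0.18 in dapCRL4 and −0.22 in dapPCNA, with adjusted p of 0.729 and 0.768 in limma. The dapCDI change passed without dapCDI 2 (−1.08, limma adjusted p = 0.00714), without dap 1 (0.0498) and with the filter at a mean of 5 RPKM (0.0400). Without dapCDI 1 it was −0.42, and without dap 2 the dap change was −0.20. Length correction gave −0.48 in dapCDI and −0.23 in dap.

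Syt4, whose product acts on the muscle side of the fly neuromuscular junction (3R, 7266065 to 7270809), had 56.9 and 46.4 RPKM in dap, 62.8 and 50.1 RPKM in dapCRL4, 61.7 and 63.0 RPKM in dapPCNA, and 45.2 and 54.7 RPKM in dapCDI, against 67.3 and 65.6 RPKM in the control. Here too all 8 dacapo libraries were below both controls. Its log2 changes of −0.37 (dap), −0.24 (dapCRL4), −0.09 (dapPCNA) and −0.42 (dapCDI) did not pass, with limma adjusted p of 0.0885, 0.404, 0.857 and 0.0723. The dapCDI change passed without dapCDI 2 (−0.56, limma adjusted p = 0.0253) and was −0.28 without dapCDI 1. Its exon length of 3103 bases is the second shortest of the 9, and length correction left −0.35 in dap and −0.38 in dapCDI.

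Sytalpha (2L, 17592260 to 17604387) and Sytbeta (3L, 15014695 to 15064977) were the least abundant of the 9. Sytalpha had 2.67 and 2.30 RPKM in dap, 3.62 and 2.70 RPKM in dapCRL4, 3.03 and 3.41 RPKM in dapPCNA, and 2.24 and 2.22 RPKM in dapCDI, against 2.57 and 2.82 RPKM in the control. Its libraries lay above the control in dapPCNA and below it in dapCDI, with log2 changes of 0.26 (interval −0.17 to 0.68) and −0.27 (−0.69 to 0.16) and limma adjusted p of 0.685 and 0.361. Sytbeta ranged from 3.13 RPKM in dap 2 to 4.51 RPKM in dapPCNA 1, and its changes lay between −0.22 in dap and 0.08 in dapPCNA with limma adjusted p of at least 0.345. An exon of CG6870 on the other strand overlaps 40 exonic bases of Sytalpha, and 13 annotated genes lie within the introns of Sytbeta.

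Of the active zone and SNARE genes, brp (2R, 9503765 to 9541565) had the largest differences. It stood at 13.9 and 8.82 RPKM in dap, 17.2 and 12.6 RPKM in dapCRL4, 17.1 and 16.3 RPKM in dapPCNA, and 9.37 and 13.6 RPKM in dapCDI, against 20.7 and 18.0 RPKM in the control. As for Syt1 and Syt4, all 8 dacapo libraries lay below both controls. The change was −0.81 in dap (interval −1.33 to −0.28, limma adjusted p = 0.0536) and −0.77 in dapCDI (−1.30 to −0.25, 0.0660), and −0.39 and −0.21 in dapCRL4 and dapPCNA (limma adjusted p = 0.458 and 0.809). In dap it passed without dap 1 (−1.13, limma adjusted p = 0.0333), without dapCDI 1 or dapCDI 2 (0.0296 and 0.0298) and under 4 other settings at 0.0366 to 0.0478. Without dap 2 it was −0.48. In dapCDI it passed without dapCDI 2 (−1.05, limma adjusted p = 0.0211) and with the filter at a mean of 5 RPKM (0.0464), and it was −0.50 without dapCDI 1. With 13371 exonic bases brp is the longest of the 9, and length correction gave −0.41 in dap and −0.38 in dapCDI (limma adjusted p = 0.140 and 0.157).

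cpx (3R, 4280221 to 4304604; 11414 exonic bases) had 54.5 and 42.8 RPKM in dap, 69.8 and 60.3 RPKM in dapCRL4, 61.8 and 62.4 RPKM in dapPCNA, and 40.5 and 53.2 RPKM in dapCDI, against 66.9 and 58.0 RPKM in the control. The dap and dapCDI libraries lay below both controls, and those of the other 2 forms overlapped the control. As deposited the changes were −0.37 in dap and −0.42 in dapCDI (limma adjusted p = 0.121 and 0.0909), those in dapCRL4 and dapPCNA were 0.06 and −0.00 (0.892 and 0.995), and after length correction those in dap and dapCDI were −0.00 and −0.06 (0.993 and 0.689). Without dapCDI 2 the dapCDI change was −0.62 and passed (limma adjusted p = 0.0193), and without dapCDI 1 it was −0.23.

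Syx1A (3R, 24101600 to 24105763) had 28.9 and 17.9 RPKM in dap, 32.1 and 26.1 RPKM in dapCRL4, 29.9 and 30.7 RPKM in dapPCNA, and 21.6 and 28.5 RPKM in dapCDI, against 31.7 and 33.3 RPKM in the control. Its lowest library was dap 2, and dapCRL4 overlapped the control. The changes of −0.52 in dap (interval −0.97 to −0.06) and −0.39 in dapCDI (−0.85 to 0.07) did not pass (limma adjusted p = 0.115 and 0.223), and that in dap passed without dap 1 (−0.86, 0.0302) and was −0.17 without dap 2. In dapCRL4 and dapPCNA the changes were −0.17 and −0.10 (limma adjusted p = 0.743 and 0.902). The gene shares 447 exonic bases with eIF4EHP on the same strand, so its value may include reads of that gene.

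Rop (3L, 4136359 to 4138996) kept the narrowest range of the 9, with 98.7 and 94.3 RPKM in dap, 101 and 99.4 RPKM in dapCRL4, 97.8 and 99.5 RPKM in dapPCNA, and 96.1 and 94.4 RPKM in dapCDI, against 101 and 95.3 RPKM in the control. Every group overlapped the control. Its changes lay between −0.04 in dapCDI and 0.03 in dapCRL4, each with a 95% interval within −0.18 and 0.16. Its range over the 10 libraries was 0.10 log2, against 1.23 for brp and 1.10 for Syt1.

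**Figure D3:**
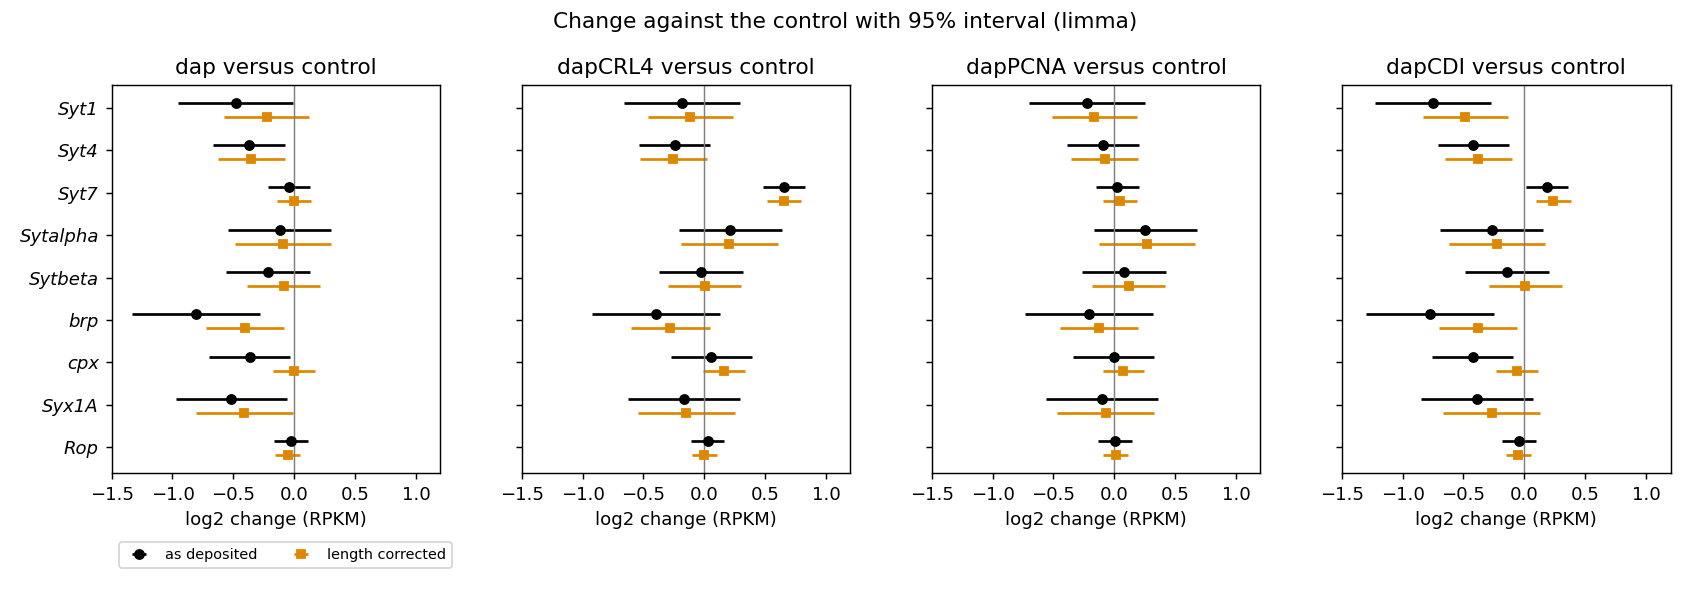
Log2 change of RPKM against the control (x axis) for the 9 genes (rows) in each dacapo form (panels), as deposited (black circles) and after exon length correction (orange squares), with 95% intervals from limma. Syt7 in dapCRL4 lies at 0.66 and 0.65, while cpx in dap lies at −0.37 as deposited and at −0.00 after the correction.

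As a list, the 9 genes had a median log2 change of −0.37 (dap), −0.02 (dapCRL4), −0.00 (dapPCNA) and −0.39 (dapCDI), beside medians of 0.06, 0.04, 0.00 and 0.04 over all genes tested. None was called in dap, where 11.8% of all genes were called in either direction, in dapPCNA (1.3%) or in dapCDI (7.56%). After length correction Syt7 in dapCRL4 was again the single call, with 3.37% (dap), 2.1% (dapCRL4), 1.97% (dapPCNA) and 3.45% (dapCDI) of all genes called. Without adjustment, 5 of the 9 had a limma p under 0.05 (dap), 1 (dapCRL4), none (dapPCNA) and 5 (dapCDI), where all genes gave 32.8%, 16.1%, 11.3% and 31.2%. Both libraries lay below both controls for 5 of the 9 genes (dap), 3 (dapCRL4), 4 (dapPCNA) and 7 (dapCDI), and over all genes tested for 24.3%, 20.2%, 24% and 26.6%. Syt7 in dapCRL4 and dapCDI and Sytalpha in dapPCNA were the members with both libraries above both controls, which 33.5%, 32.5% and 25.1% of all genes showed. In dap no member did, against 39.4% of all genes. In a limma F test for any difference among the 5 genotypes, Syt7 was called (adjusted p = 0.00527) and the other 8 were not, with 3.09% of all genes called. Without dapCRL4 1 that adjusted p was 0.0535, and without dapCDI 2 Syt1 (0.0304) and cpx (0.0349) passed as well.

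Among the stabilized forms set against wild-type dacapo, Syt7 in dapCRL4 was the single call for the 9 genes. In dapPCNA and dapCDI none was called against dap, where 1.33% and 0.144% of all genes were called in either direction. Medians of the 9 were 0.33 in dapCRL4, 0.30 in dapPCNA and −0.02 in dapCDI relative to dap. After length correction they were 0.13, 0.20 and 0.00, and rho between exon length and change over all genes was 0.51, 0.52 and 0.07.

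The libraries dap 2 and dapCDI 1 stood apart for most of the 9 genes. Relative to each gene's mean over the 10 libraries, the median of the 9 was −0.03 and −0.29 log2 in the dap libraries, 0.24 and −0.01 in those of dapCRL4, 0.14 and 0.15 in those of dapPCNA, and −0.33 and −0.07 in those of dapCDI, against 0.20 and 0.16 in the control. All 9 were below their mean in dap 2 and in dapCDI 1, and none was in dapCRL4 1. In dap 2 and dapCDI 1, 21 and 19 of 22 release partners were below theirs. Of 20 fusion paralogs that act at other membranes, 6 and 1 were. The share over all genes was not computed. Exons of the partners add up to a median of 6005.5 bases, and those of the paralogs to 1655. In dap 2 and dapCDI 1 the median deviation was −0.29 and −0.17 for the partners, and 0.03 and 0.17 for the paralogs. After length correction it was −0.10 and −0.08 for the partners, and −0.04 and 0.09 for the paralogs. The median gap between the 2 libraries of a genotype was 0.29 log2 in dap and 0.28 in dapCDI for the 9 genes, beside 0.13 and 0.17 for all genes tested. In the control it was 0.09 for the 9 genes and 0.10 for all. The first library was the higher one for 9 of 9 genes in dap and in dapCRL4.

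As deposited, neuron markers moved with these libraries. The 8 markers (elav, fne, futsch, Appl, nrv3, ple, Shab and para) summed to 471 and 375 RPKM in dap, 478 and 435 RPKM in dapCRL4, 460.1 and 452 RPKM in dapPCNA, and 377 and 444 RPKM in dapCDI, against 524 and 497 RPKM in the control. Their sums were thus lowest in dap 2 and dapCDI 1, none was listed at 0, and 7 of the 8 passed the filter. Relative to each gene's mean, the median of the 7 was −0.04 and −0.34 log2 in dap, and −0.36 and 0.01 in dapCDI. After length correction it was −0.04 and −0.03 in dap, and −0.17 and 0.05 in dapCDI. Of those 7, 3 were called lower in dap (futsch, ple and Shab), 2 in dapCDI (elav and Appl) and none in the other 2 forms, where 3.27% (dap) and 2.83% (dapCDI) of all genes were called lower. Each of these calls was lost in most alternatives, from 13 of 20 for futsch and 13 of 21 for Shab to 17 of 21 for Appl. After length correction none was called lower, and fne was called higher in dap (0.28, limma adjusted p = 0.0376). Markers of neuroblasts and their daughters, 8 in all, summed to 191 and 168 RPKM in dap and 157 and 171 RPKM in dapCDI. The control had 204 and 201 RPKM. Called lower were 1 in dap (grh), 3 in dapCDI (grh, pros and nerfin-1) and nerfin-1 in dapCRL4 and dapPCNA. The last 2 changes were −0.69 and −0.81, where 1.45% and 1.3% of all genes were called in either direction. After length correction the nerfin-1 calls remained and those of grh and pros did not. In dapCRL4 and dapPCNA 1 marker each was then called higher. The sum of the 8 muscle markers was highest in dapCDI, at 21334 and 18933 RPKM, against 15253 and 17184 RPKM in the control. Of the 8, 1 had a negative log2 change in dapCDI. Mhc was called lower in dap (log2 −0.31, limma adjusted p = 0.0360) and Mlc2 higher in dapCDI, and neither call remained after length correction. Of 8 glial markers none was called in any form as deposited, and after length correction loco was called higher in dap and dapCDI (0.45 and 0.46, limma adjusted p = 0.0395 and 0.0392). In whole embryos the cells that expressed a marker, ple and grh among them, cannot be told, so these sums and calls need not come from the named cell types. The part of these markers in the values of the 9 genes was not tested.

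**Figure D4:**
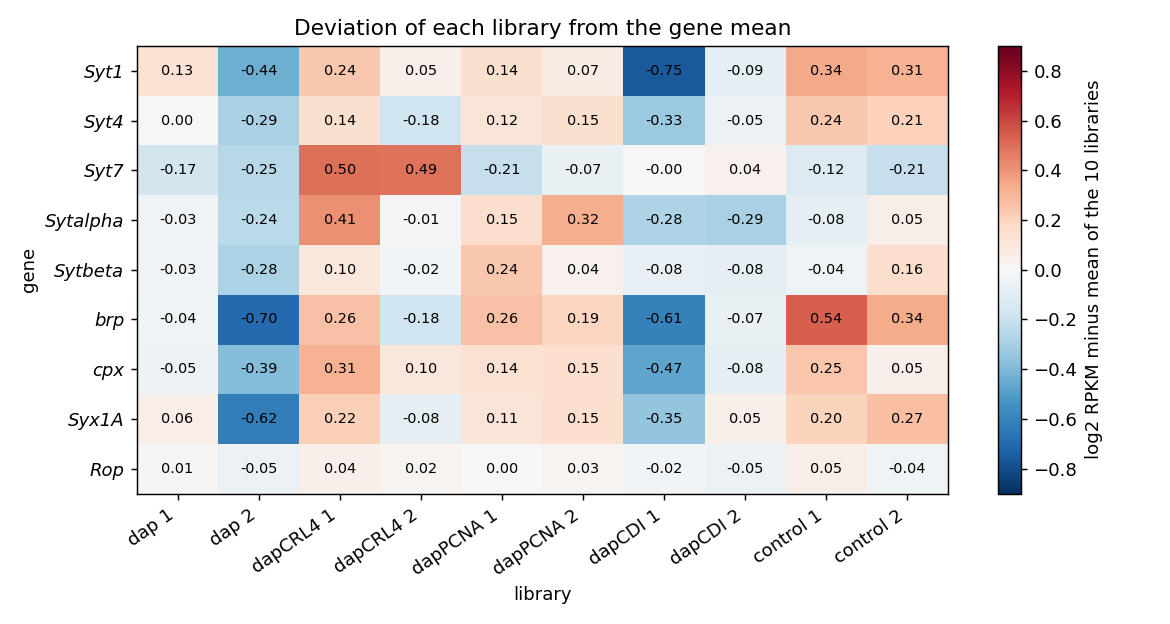
Heat map of log2 RPKM minus the gene's mean over the 10 libraries (colour, red above and blue below the mean, value printed in each cell) for the 9 genes (y axis) in each library (x axis). The dap 2 and dapCDI 1 columns are blue for Syt1, Syt4, brp, cpx and Syx1A, and Syt7 is red in both dapCRL4 libraries.

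Transcript length moved with the differences too. Across 10253 genes with an annotated length, Spearman's rho between exon length and log2 change was −0.57 (dap), −0.30 (dapCRL4), −0.22 (dapPCNA) and −0.55 (dapCDI), a description over genes that share libraries. Exons of the 9 genes add up to a median of 4164 bases, and those of all genes tested to 2008. Correction for length brought their median change to −0.09 (dap), 0.00 (dapCRL4), 0.01 (dapPCNA) and −0.22 (dapCDI). Within a genotype, rho between exon length and the first library minus the second was computed as well. It was 0.34 in dap and in dapCRL4, 0.27 in dapPCNA, −0.45 in dapCDI and 0.03 in the control. The trend with length was thus also present between libraries of the same dacapo form. What produced the length trend was not tested.

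**Figure D5:**
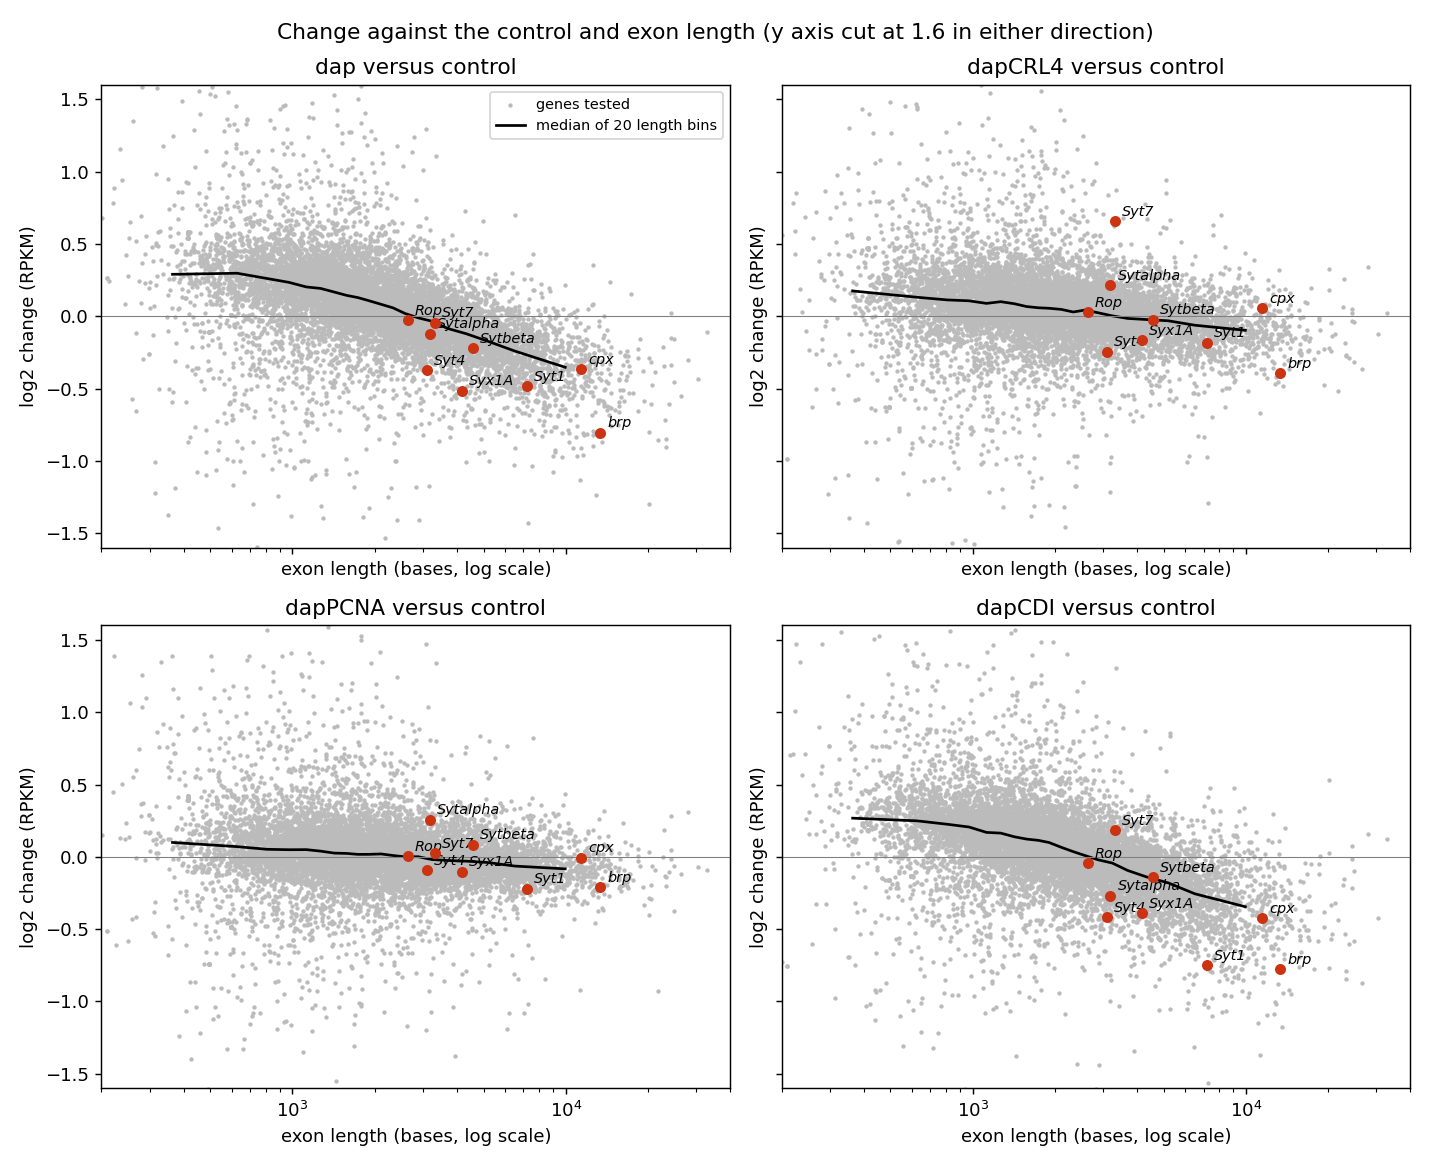
Log2 change of RPKM against the control (y axis) by exon length in bases (x axis, log scale) in each dacapo form, with tested genes in grey, a black line at the median of length bins and the 9 genes in red. Long genes lie lower in dap and dapCDI, with rho of −0.57 and −0.55, and Syt7 in dapCRL4 lies above the trend at 0.66.

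Pearson's r of log2 RPKM over the 10 libraries lay between 0.85 and 0.98 among Syt1, Syt4, brp, cpx and Syx1A, which were grouped because they share their lowest libraries, so that a high r restates that choice. It lay between 0.62 and 0.78 for Sytalpha and Sytbeta with these 5 genes, and between −0.10 and 0.44 for Syt7 with the other 8. The genes most like Syt1 were Sra-1, Gbeta13F and fred (r of 0.99, 0.98 and 0.98), and those most like brp were CG6490, Dcp2 and AGO1 (0.99 each). Nearest to cpx was shi (0.98), the dynamin gene, and nearest to Syt4 was Sema-1a (0.98), a guidance ligand. After length correction neither was among the nearest 3, which were CG12402, Ndfip and CG1090 for cpx and brp, Evi5 and dally for Syt4. The genes most like Syt7 as deposited were CG14044, Or56a and Cyp6a20 (0.93, 0.92 and 0.91). After length correction they were CG30338, Or56a and CG18343. These correlations rest on shared libraries that differ in depth and in the length trend.

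Of the 3 further synaptotagmin-related genes, Syt12 fell in dap and dapCDI, and Syt14 and Esyt2 were not called in any form. Syt12 had 2.14 RPKM in both dap libraries and 1.79 and 2.13 RPKM in dapCDI, against 3.63 and 3.38 RPKM in the control. In dapCRL4 it had 2.85 and 2.22 RPKM and in dapPCNA 2.77 and 2.71 RPKM, so all 8 dacapo libraries lay below both controls. How many of all genes share this pattern was not computed. The change was −0.71 in dap (limma adjusted p = 0.0412) and −0.85 in dapCDI (0.0375), and after length correction it was −0.56 and −0.68 and no longer passed (0.0960 and 0.0565). Over the alternatives the call was lost in 13 of 20 for dap and 12 of 20 for dapCDI.

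Partners of the 9 genes in release gave no call. None of 22 release partners, from the vesicle SNARE nSyb to the calcium channel cac, was called in any form. Of all genes, 11.8% (dap), 1.45% (dapCRL4), 1.3% (dapPCNA) and 7.56% (dapCDI) were called in either direction. The medians of the partners were −0.21 (dap), −0.05 (dapCRL4), −0.01 (dapPCNA) and −0.21 (dapCDI). After length correction these were −0.03, −0.05, 0.04 and −0.07. Of 14 genes of vesicle recycling, lap, the AP180 clathrin adaptor, fell in dapCDI, where 2.83% of all genes were called lower. It had 38.3 and 38.9 RPKM in dapCDI against 51.2 and 50.8 RPKM in the control (log2 −0.40, limma adjusted p = 0.0443), and the call was lost in 14 of 21 alternatives, length correction among them.

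Paralogs of the SNARE and Sec1/Munc18 genes that act at other membranes were measured beside them. Of 20, 2 rose in dap, where 8.53% of all genes were called higher, and 3 in dapCDI, where 4.73% were, and none was called in dapCRL4 or dapPCNA. Syx4, a plasma membrane syntaxin gene, rose by 0.58 in dap and 0.57 in dapCDI (limma adjusted p = 0.0331 and 0.0462). The Golgi SNARE gene Gos28 rose by 0.33 in dap (0.0418 in limma, adjusted). In dapCDI the SNARE genes Ykt6 and membrin rose by 0.31 and 0.36 (0.0449 and 0.0490). Exons of these paralogs add up to a median of 1655 bases, and those of the release partners to 6005.5, and none of the 5 calls remained after length correction. The corrected changes were 0.44 (dap) and 0.46 (dapCDI) for Syx4, 0.09 for Gos28, 0.17 for Ykt6 and 0.15 for membrin.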

How the data were processed

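The deposited table holds log2 RPKM per gene, per the file headers, for 15422 genes in 10 libraries, with a floor of −9.11 for genes without reads. PolyA RNA was sequenced as single reads of 50 bases, per the labels' protocols, with a yield between 20.7 and 43.4 megareads. The submitters' processing notes name the build BDGP6. For the aligner, counter, strand setting and gene lengths the entry is: not given in the sources used here. RPKM is no count, so a linear model was fitted with limma 3.58.1 (R 4.3.3) to log2 RPKM as deposited, for the 10396 genes that reached 1 RPKM in 2 or more libraries. It had 1 mean per genotype and a mean-variance trend, and p-values were adjusted by Benjamini-Hochberg over the whole set of tested genes. Intervals are 95%. Exon lengths and positions came from the Ensembl BDGP6 annotation, and the length correction subtracted a lowess curve (span 0.3) per library. The fit was tested on simulated data with independent noise for each gene and no length trend. That test therefore cannot show how the fit copes with the length trend. All 9 genes are named. Of the other lists, called members are named, up to 4 per direction and comparison, and 3 nearest genes per member were computed. Members and lists were chosen with earlier results of these data known. Figures were drawn with matplotlib 3.10.9.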

Additional observations from a re-analysis of the deposited data

How the results depend on the processing

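Across the alternatives, 1238 of 1309 values for the 9 genes kept their direction and their side of the threshold, 15 gained a call, 5 lost one and 51 changed sign. The number of the 9 genes called in dap against control was 1 rather than 0 with log2(RPKM + 1), a mean of at least 5 RPKM, quantile normalization or median centring, and 0 to 2 with a library left out. In dapCDI against control it was 2 with a mean of at least 5 RPKM and 0 to 4 with a library left out. In dapCRL4 against dap it was 0 with only the groups compared or without dap 2 and dapCDI 1 together (chosen after seeing the data), and 0 to 1 with a library left out. The F test called 0 to 3 genes with a library left out. The replicate block left the number of the 9 genes called as it was in each comparison, at 0 (dap), 1 (dapCRL4), 0 (dapPCNA) and 0 (dapCDI) against control, while calls over all genes were 889, 129, 126 and 253, against 1227, 151, 135 and 786 without it. The replicate numbers were not taken to pair the libraries, since r of their deviations lay between −0.05 and 0.09 over 10 pairs of genotypes. Although 10 of 10 libraries correlated best with their own number, the deviations of the 2 libraries of a genotype mirror each other. The matches are therefore not independent and cannot decide whether the libraries are paired. No sign change concerned a called value. Without dap 2 and dapCDI 1, Rop in dap was 0.00636, Syt4 in dapCRL4 against dap −0.0195, Syt1 and Rop in dapPCNA against dap −0.0245 and −8.5e-05, and Sytbeta, brp and Syx1A in dapCDI against dap −0.048, −0.0266 and −0.0178. With exon length correction, alone or with the replicate block, Sytbeta was 0.00294 in dapCRL4 and 0.00654 in dapCDI, cpx 0.0742 in dapPCNA, and Rop 0.00187 in dapCDI against dap. Quantile normalization gave Rop −0.0241 in dapCRL4 and −0.0274 in dapPCNA, and median centring gave cpx 0.00779 in dapPCNA and Rop 0.00413 in dapCDI against dap. With a library left out, sign changes against control came with ranges of −0.0689 to 0.0169 (Rop, dap), −0.0479 to 0.16 (cpx, dapCRL4), −0.0161 to 0.0697 (Rop, dapCRL4), −0.12 to 0.0734 (Sytbeta, dapCRL4), −0.11 to 0.0976 (cpx, dapPCNA), −0.0367 to 0.0492 (Rop, dapPCNA), −0.0446 to 0.0966 (Syt7, dapPCNA) and −0.0189 to 0.18 (Sytbeta, dapPCNA). Against dap, the dapCDI ranges were −0.30 to 0.36 (brp), −0.25 to 0.14 (cpx), −0.0507 to 0.014 (Rop), −0.60 to 0.0648 (Syt1), −0.19 to 0.0995 (Syt4), −0.0453 to 0.20 (Sytbeta) and −0.22 to 0.47 (Syx1A). The other ranges against dap were −0.0356 to 0.29 (Syt4, dapCRL4), −8.5e-05 to 0.0646 (Rop, dapPCNA), −0.0245 to 0.55 (Syt1, dapPCNA) and −0.00198 to 0.14 (Syt7, dapPCNA). The cause of these changes was not tested. Sytalpha and Sytbeta were not tested with a mean of at least 5 RPKM, and the fit of only the groups compared was not run for the F test. With 2 libraries per genotype, a lone library is assumed to vary like the other groups.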
